A study of Homo sapiens with 7 samples.

Results

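A set of 9 genes for cell polarity, actin binding and the kinase UHMK1 was followed in DROSHA knockout HCT116 cells given miR-148a-3p or a control miRNA, out of 15659 gene symbols counted in the 6 mRNA libraries. LLGL1, COTL1 and UHMK1 were selected on their lower counts with miR-148a-3p in these same libraries. Their values in this comparison are therefore a description, given with no test. The other 6 genes, LLGL2, SCRIB, DLG1, CFL1, PFN1 and DBN1, were added as relatives by family. All 9 were found by symbol and all 9 passed the filter on low counts, which kept 8921 genes.

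HCT116 is a human colorectal carcinoma line, and both groups carry the same DROSHA knockout, which removes the enzyme that starts the maturation of most microRNAs. The cells were transfected with miR-148a-3p (3 libraries) or with the control miRNA (3 libraries), and RNA was taken after 48 h. The labels do not give the number of knockout clones, the sequence of the control miRNA or whether the replicates were grown apart, so p-values cover only the spread seen among these 6 libraries, which may be technical. Reads came from the 3' ends of polyadenylated transcripts, whatever their length. Levels are therefore given with no division by length, as CPM, reads scaled to a common library size (TMM-normalised).

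A microRNA pairs through its seed, bases 2 to 8, with matching letters in messenger RNAs, mostly near their 3' ends, and lowers their stability or translation. The seed of the transfected microRNA is also that of its family members, and the sequences (RefSeq, GRCh38.p14, 5' to 3', seed in capitals) are shown because they define the treatment.
miR-148a-3p: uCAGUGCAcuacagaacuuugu
miR-148b-3p: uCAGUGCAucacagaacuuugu
miR-152-3p: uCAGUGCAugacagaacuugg
The first is read from the minus strand at chr7:25949922-25949943. The DNA letters that pair with the shared seed are TGCACTG. Whether the transcripts of the 9 genes hold them was not analysed here.

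Epithelial cells keep an apical and a basolateral side apart through 3 protein modules. The Scribble module, of Scribble, Discs large and Lethal giant larvae proteins, marks the basolateral side and opposes the PAR and Crumbs modules on the apical side. The mammalian Lethal giant larvae proteins are LLGL1 and LLGL2, named after a tumour suppressor of Drosophila, and the atypical protein kinase C of the PAR module phosphorylates them off the apical membrane. The actin cytoskeleton beneath these membranes turns over through cofilin, which severs filaments, and profilin, which loads monomers for growth. UHMK1, also called KIS, is a serine/threonine kinase with a U2AF homology motif, and phosphorylates the cell cycle inhibitor p27 (CDKN1B), stathmin (STMN1) and the splicing factor SF1.

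The libraries held 630142 to 1564125 counts with miR-148a-3p and 876131 to 1069154 with the control miRNA. Colon epithelial markers summed to 1022 to 2739 counts with miR-148a-3p and 1477 to 2069 with the control miRNA, most of them from KRT18, with KRT20, CDX1, LGR5, MUC2 and CEACAM5 at 0 among the 13 listed. Fibroblast and endothelial markers summed to 28 to 83 counts with miR-148a-3p and 34 to 85 with the control miRNA, most of them from COL1A1, with 6 of 11 at 0. Blood cell markers summed to 2 to 10 counts with miR-148a-3p and 2 to 7 with the control miRNA, with 9 of 12 at 0, among them PTPRC. Control replicate 1 stood apart on the first principal component at −31.4, as did miR-148a-3p replicate 3 at 34.2, against −8.29 to 13.1 for the other libraries. Of the 27 genes named by rule from the 10 lists besides the picked 3, 21 changed sign or moved by over 1.5 times on leaving out some 1 library; none of the 27 had passed the test.

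LLGL1 was lower with miR-148a-3p, and its fitted fold change was the lowest of all 8921 genes tested. It had 17, 15 and 6 reads in the miR-148a-3p libraries, against 37, 41 and 40 in the control libraries. On the CPM scale these were 11.2, 17.7 and 9.88 with miR-148a-3p, and 35.6, 47.8 and 45.5 with the control miRNA. The highest miR-148a-3p library thus stood below the lowest control library, and the deepest library of all, miR-148a-3p replicate 1, gave less than any control library in reads too. The means were 12.9 ± 4.21 CPM with miR-148a-3p and 43.0 ± 6.47 CPM with the control miRNA (SD, n = 3 each), a log2 fold change of −1.72 (SE 0.38) or 0.304 of the control level. As with every transcript in bulk RNA, fewer cells with the transcript and less of it per cell cannot be told apart.

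LLGL1 shares its 3' end with another gene. Its span, chr17:18225635-18244875 on the plus strand, overlaps by 61 bases that of FLII at chr17:18244815-18259022 on the minus strand, so the pair end tail to tail. FLII, the mammalian homologue of Drosophila flightless I, is an actin remodelling protein of the gelsolin family. FLII had 139, 142 and 221 CPM with miR-148a-3p, against 95.4, 118 and 117 CPM with the control miRNA. It was thus higher in every miR-148a-3p library than in any control library, the opposite order to LLGL1, at 0.59 on the log2 fold change scale (SE 0.22, edgeR adjusted p = 0.593), which did not pass and was 0.35 without miR-148a-3p replicate 3. The use of strand in counting is not given in the sources used here, and reads in the shared bases may be counted under either name.

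The reads of both genes were also added together, a sum that mixes changes of LLGL1 with those of FLII. The sum was 150, 160 and 230 CPM with miR-148a-3p, against 131, 166 and 163 CPM with the control miRNA, with overlapping groups, the highest sum in miR-148a-3p replicate 3 and a log2 fold change of 0.22 (SE 0.21). FLII holds most of this sum: LLGL1 made up 7.46%, 11.1% and 4.29% of it with miR-148a-3p, against 27.2%, 28.9% and 28.0% with the control miRNA. The share of LLGL1 was thus lower in every miR-148a-3p library. As LLGL1 was picked as lower, this share is a description and adds no support. The sum was chosen after these values were seen, and how far the counting of shared bases enters the LLGL1 values was not tested.

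The paralogue LLGL2 did not follow LLGL1. LLGL2 lies at chr17:75525002-75575209 and had 87.0, 74.5 and 84.0 CPM with miR-148a-3p, against 71.3, 63.0 and 77.4 CPM with the control miRNA. The groups overlapped, and the log2 fold change was 0.22 (SE 0.24, 95% interval −0.27 to 0.70, edgeR adjusted p = 0.899). Of the reads of both paralogues, LLGL1 gave 11.4%, 19.2% and 10.5% in the miR-148a-3p libraries, against 33.3%, 43.2% and 37.0% in the control libraries. LLGL2 was thus the more counted paralogue in all 6 libraries. LLGL1 averaged 13.7% ± 4.79 of the pair with miR-148a-3p and 37.8% ± 4.96 with the control miRNA (SD, n = 3 each). This share too is a description, since its numerator was picked as lower.

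The partners of LLGL1 in the Scribble module had overlapping groups. SCRIB, a scaffold of leucine-rich repeats and PDZ domains, had 58.0, 73.4 and 85.6 CPM with miR-148a-3p, against 64.5, 71.2 and 71.7 CPM with the control miRNA (log2 fold change 0.04, SE 0.25, 95% interval −0.47 to 0.55, edgeR adjusted p = 0.985). Its sign depends on single libraries: the value was −0.084 if miR-148a-3p replicate 3 was left out and −0.013 if control replicate 1 was. DLG1, a PDZ and guanylate kinase-like scaffold at chr3:197042560-197299321, had 84.4, 80.5 and 97.1 CPM with miR-148a-3p, against 83.8, 106 and 92.1 CPM with the control miRNA. Its log2 fold change was −0.11 (SE 0.23, 95% interval −0.58 to 0.35, edgeR adjusted p = 0.942), and it was −0.019 without control replicate 2 and −0.19 without control replicate 1. Its antisense gene DLG1-AS1 had 1 read in all, in miR-148a-3p replicate 2.

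**Figure D1:**
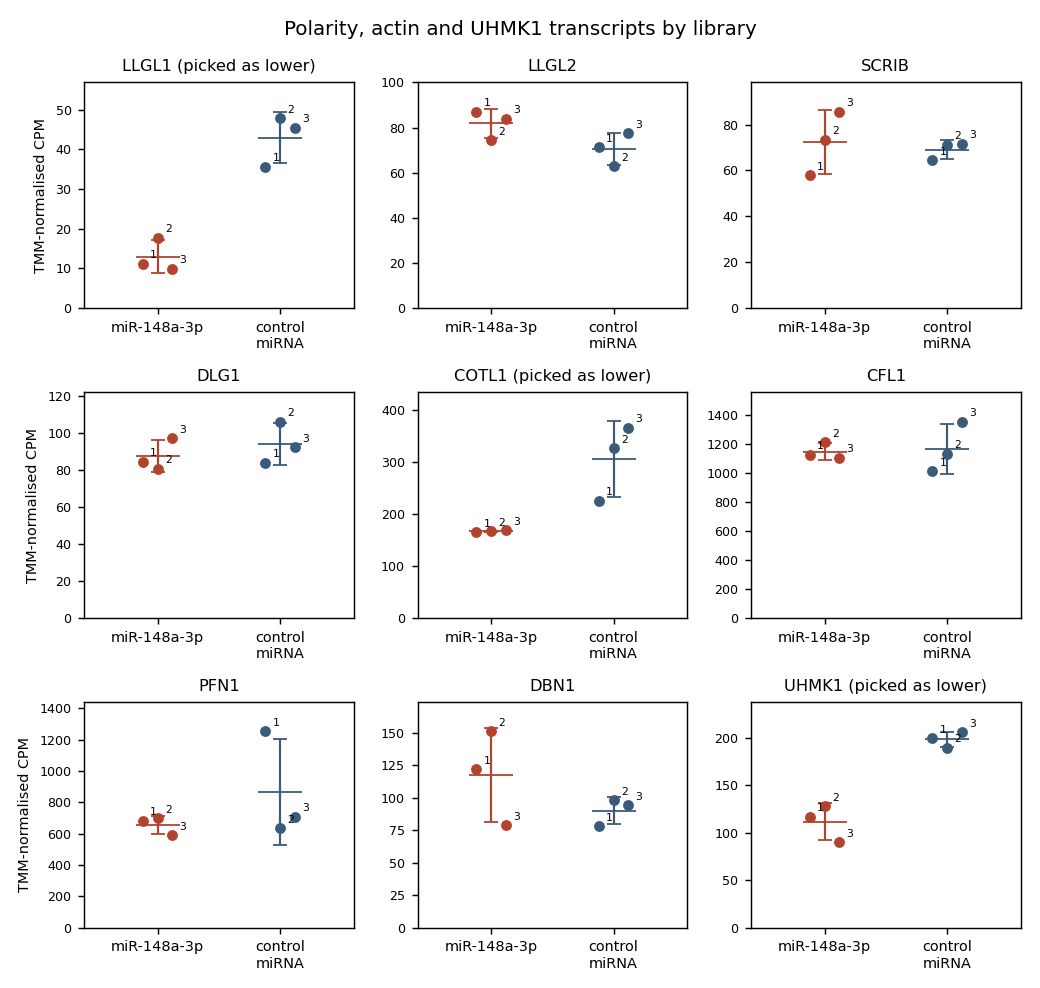
TMM-normalised CPM (y axis, from 0) of the 9 genes in each library, with miR-148a-3p left and control miRNA right; numbered points are replicates, and bars are the mean ± SD of 3 libraries. LLGL1, COTL1 and UHMK1, picked as lower, have groups that do not overlap, LLGL1 at 9.88 to 17.7 against 35.6 to 47.8; the other 6 genes overlap, and PFN1 control replicate 1 stands at 1252.

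COTL1 was lower with miR-148a-3p, and its miR-148a-3p libraries lay close together. COTL1, coactosin-like protein, binds actin filaments and 5-lipoxygenase, and its gene lies at chr16:84565596-84618078 on the minus strand. It had 250, 140 and 102 reads with miR-148a-3p, against 234, 279 and 321 with the control miRNA. In CPM these were 165, 166 and 168 with miR-148a-3p, and 225, 326 and 365 with the control miRNA. The control libraries spread far more than the miR-148a-3p libraries, and control replicate 1 was nearest to them. The means were 166 ± 1.63 CPM with miR-148a-3p and 305 ± 72.0 CPM with the control miRNA (SD, n = 3 each), a log2 fold change of −0.88 (SE 0.20) or 0.545 of the control level.

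CFL1, the most counted of the 9 genes, differed little between groups. CFL1, the nonmuscle cofilin at chr11:65854673-65858180, shares the ADF homology fold with COTL1 and had 1128, 1213 and 1106 CPM with miR-148a-3p, against 1012, 1134 and 1356 CPM with the control miRNA. The groups overlapped (log2 fold change −0.02, SE 0.16, 95% interval −0.36 to 0.31, edgeR adjusted p = 0.987). The value was 0.10 without control replicate 3. A pseudogene, CFL1P1, held 9 reads in all, against 6623 of CFL1, and adding them moved no call. For each 100 CFL1 reads there were 14.6, 13.7 and 15.2 COTL1 reads with miR-148a-3p, against 22.3, 28.7 and 26.9 with the control miRNA. As COTL1 was picked as lower, this ratio is a description and adds no support.

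PFN1 and DBN1 pointed in opposite directions and neither passed. PFN1, profilin 1 at chr17:4945652-4948530, had 682, 697 and 591 CPM with miR-148a-3p, against 1252, 636 and 709 CPM with the control miRNA. Its log2 fold change of −0.40 (SE 0.20, 95% interval −0.81 to 0.01, edgeR adjusted p = 0.726) rests on control replicate 1, without which it was −0.03. DBN1, drebrin, an ADF homology protein that binds along actin filaments, lies at chr5:177456610-177473634 and had 122, 151 and 79.0 CPM with miR-148a-3p, against 78.0, 98.0 and 94.4 CPM with the control miRNA. The groups overlapped, with miR-148a-3p replicate 3 among the lowest values (log2 fold change 0.40, SE 0.24, 95% interval −0.09 to 0.89, edgeR adjusted p = 0.767). Without miR-148a-3p replicate 2 it was 0.19.

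UHMK1 was lower with miR-148a-3p, with control libraries that lay close together. Its gene lies at chr1:162497174-162529631 on the plus strand, and it had 177, 108 and 55 reads with miR-148a-3p, against 208, 163 and 181 with the control miRNA. In CPM these were 117, 128 and 90.5 with miR-148a-3p, and 200, 190 and 206 with the control miRNA. No miR-148a-3p library reached the lowest control library. The means were 112 ± 19.1 CPM with miR-148a-3p and 199 ± 7.97 CPM with the control miRNA (SD, n = 3 each), a log2 fold change of −0.82 (SE 0.20) or 0.566 of the control level. The nearest annotated genes on either side of UHMK1 held 0 and 1 reads over the 6 libraries, and those beside COTL1 held 0, and no gene overlapped the span of either.

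Over all genes tested, 1 was called lower (0.0112% of 8921, edgeR adjusted p below 0.05) and 0 higher (0%), and none of the 6 relatives was called. Unadjusted edgeR p-values lay below 0.05 for 303 lower genes (3.4%) and 303 higher genes (3.4%), and DESeq2 called 6 lower and 1 higher. The 3 picked genes had groups that did not overlap, all lower with miR-148a-3p, as did 6.59% of all genes tested on that side; 6.22% did not overlap on the higher side. Since this comparison chose them, nothing is read from that count. COTL1 ranked 123 and UHMK1 169 from the lowest fold change. With 1 library left out the log2 fold changes ran from −1.99 to −1.58 for LLGL1, from −1.06 to −0.72 for COTL1 and from −0.92 to −0.70 for UHMK1.

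**Figure D2:**
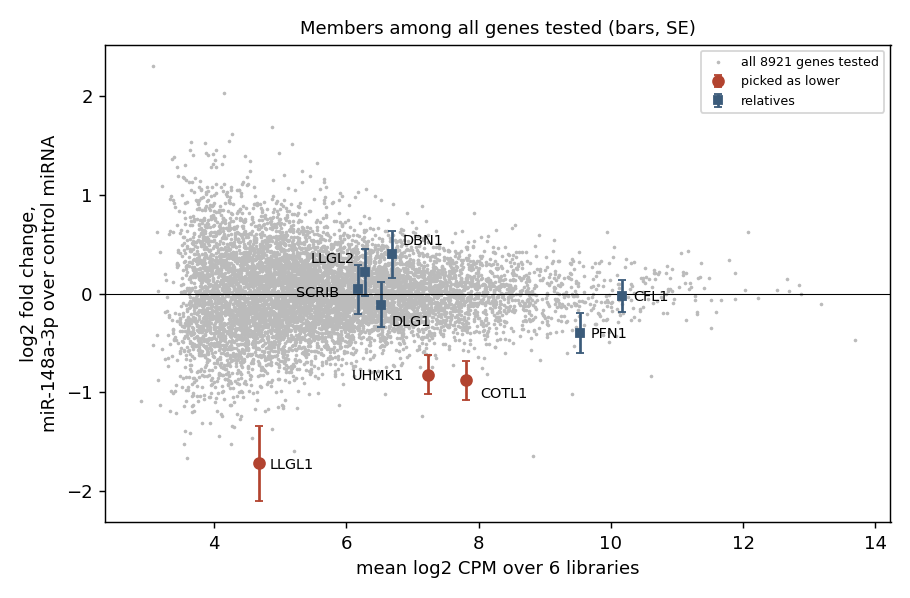
Log2 fold change, miR-148a-3p over control miRNA (y axis), against mean log2 CPM over 6 libraries (x axis); grey points are the 8921 genes tested, circles the 3 genes picked as lower, squares the 6 relatives, bars SE. LLGL1 lies at −1.72, below every other gene, COTL1 and UHMK1 at −0.88 and −0.82, and the relatives between −0.40 and 0.40.

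The order of levels among the 9 genes was the same at its upper and lower ends in both groups. With miR-148a-3p, CFL1 averaged 1149 CPM, PFN1 656, COTL1 166, DBN1 117, UHMK1 112, DLG1 87.3, LLGL2 81.8, SCRIB 72.3 and LLGL1 12.9. Neighbours from DBN1 down to SCRIB overlapped in their libraries, whereas CFL1, PFN1, COTL1 and LLGL1 each stood clear of the next. With the control miRNA the order was CFL1 (1167 CPM), PFN1 (866), COTL1 (305), UHMK1 (199), DLG1 (94.0), DBN1 (90.1), LLGL2 (70.5), SCRIB (69.1) and LLGL1 (43.0). There CFL1 overlapped PFN1, DLG1 overlapped DBN1 and LLGL2 overlapped SCRIB. LLGL1 was the least counted in both groups, and UHMK1 stood clear of DLG1 and DBN1 with the control miRNA alone.

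**Figure D3:**
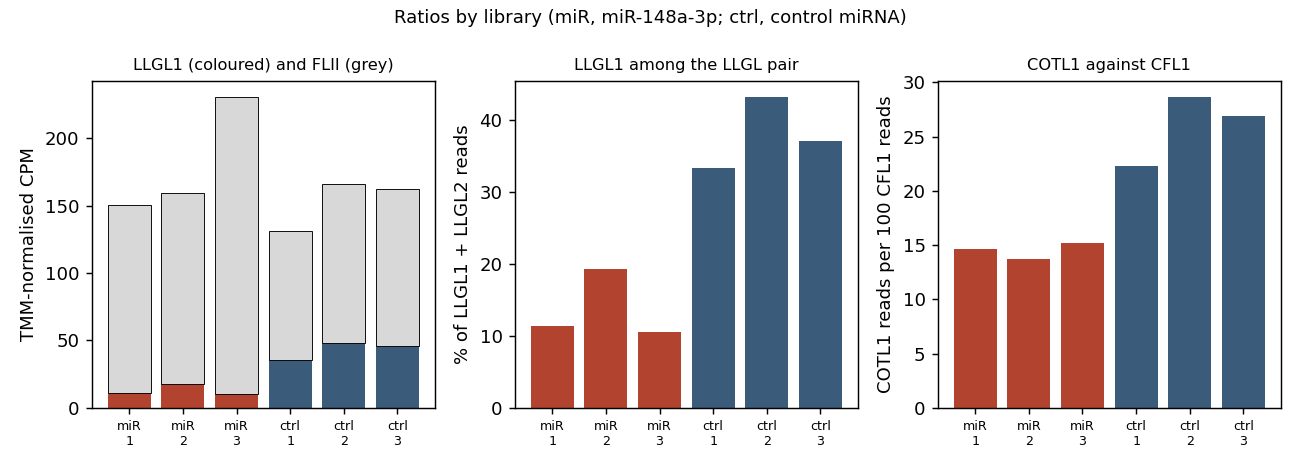
Values by library, with miR-148a-3p replicates 1 to 3 left of control replicates 1 to 3: CPM of LLGL1 (coloured) with FLII stacked on it (grey), the percent of LLGL1 among LLGL1 and LLGL2 reads, and COTL1 reads per 100 CFL1 reads. The stacked sum runs from 150 to 230 with miR-148a-3p and from 131 to 166 with the control miRNA, while LLGL1 is 10.5% to 19.2% of its pair with miR-148a-3p and 33.3% to 43.2% with the control miRNA.

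The wider polarity and actin genes were read through 10 lists of 110 genes, of which 84 were tested. Without the 3 picked genes, 81 were left. Of these 0 were called in either direction with edgeR, against 0.0112% of all genes. Limma-voom also called 0 of the 81, and DESeq2 called 0 of the 33 for which it gave an adjusted p. At an unadjusted edgeR p below 0.05, 1 of the 81 was lower and 5 were higher, beside 3.4% of all genes in each direction. Fitted values were lower for 42 and higher for 39, with a median log2 fold change of −0.02, beside −0.0039 over all genes tested. Groups did not overlap for 6 of the 81 on the lower side and 5 on the higher side. Over all genes tested these shares were 6.59% and 6.22%, so nothing is read from single list genes whose groups do not overlap.

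In the Scribble list 7 other genes were tested, 2 with lower and 5 with higher fitted values and a median of 0.05, from −0.23 to 0.22, beside −1.72 for LLGL1. In the PAR list 4 of 10 had lower values (median 0.04). CDC42, the small GTPase that binds PAR-6, averaged 365 CPM with miR-148a-3p and 350 CPM with the control miRNA, with a log2 fold change of 0.06 (SE 0.18) whose sign turned to −0.084 without miR-148a-3p replicate 3. MARK3, a kinase of the PAR-1 family, averaged 87.9 CPM with miR-148a-3p and 100 CPM with the control miRNA (−0.17, SE 0.28), and was 0.25 without control replicate 1. STK11, the kinase LKB1 that activates the MARK kinases, had 50.8, 46.1 and 47.7 CPM with miR-148a-3p, against 25.0, 38.5 and 29.6 CPM with the control miRNA. Its groups did not overlap, and its fitted log2 ratio of 0.65 (SE 0.31, edgeR adjusted p = 0.725) did not pass. All 4 tested genes of the 8 in the Crumbs list had lower fitted values (median −0.49), with 0 called, where 4504 of 8921 genes were lower in all. LIN7C, a PDZ scaffold, was at −0.55 (SE 0.30, edgeR adjusted p = 0.726), and at −0.10 without control replicate 2. PATJ, a multi-PDZ scaffold, was at −0.49 (SE 0.35), and its partner PALS1, listed under its older symbol MPP5, at −0.12 (SE 0.20). CRB3, the epithelial Crumbs protein, had 1 read in all.

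In the ADF homology list 8 genes other than COTL1 were tested, 4 with lower and 4 with higher values and a median of 0.06. DSTN, the cofilin relative destrin, averaged 482 CPM with miR-148a-3p and 540 CPM with the control miRNA (−0.16, SE 0.19; 0.044 without control replicate 3). TWF2, a twinfilin that binds actin monomers, had 118, 234 and 153 CPM with miR-148a-3p, against 54.9, 147 and 84.2 CPM with the control miRNA. The groups overlapped, and the fitted log2 ratio of 0.82 (SE 0.28, edgeR adjusted p = 0.504) did not pass; it was 0.50 without miR-148a-3p replicate 2, 0.53 without control replicate 1 and 1.27 without control replicate 2. All 7 tested actin monomer binders had lower fitted values, with a median of −0.34 and 0 called, where 4504 of 8921 genes were lower in all. TMSB10, a thymosin that holds monomers, averaged 1660 CPM with miR-148a-3p and 1900 CPM with the control miRNA (−0.19, SE 0.17; −0.32 without control replicate 1 and −0.048 without control replicate 3), and TMSB4X had −0.47 (SE 0.24, edgeR adjusted p = 0.726).

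Of the kinases and phosphatases that set cofilin activity, 4 of 8 were tested, 2 lower and 2 higher (median −0.05). SSH1, a phosphatase that activates cofilin, was at 0.09 (SE 0.21) and LIMK1, a kinase that inactivates it, at 0.18 (SE 0.34); these were −0.0081 without miR-148a-3p replicate 1 for SSH1 and −0.010 without miR-148a-3p replicate 3 for LIMK1. The cytoplasmic actins were slightly higher. Their groups did not overlap, as for 6.22% of all genes tested on the higher side, and those of ACTG1 nearly touched. ACTB had 901, 954 and 1026 CPM with miR-148a-3p, against 877, 799 and 789 CPM with the control miRNA (0.22, SE 0.16, edgeR adjusted p = 0.813). ACTG1 had 2284, 2215 and 2797 CPM with miR-148a-3p, against 1890, 2195 and 2211 CPM with the control miRNA (0.21, SE 0.16, edgeR adjusted p = 0.830), and was 0.14 without control replicate 1 and 0.10 without miR-148a-3p replicate 3. Neither passed, and 7 of the 9 tested genes of the actin and myosin list had higher values (median 0.14), with 0 called, where 4417 of 8921 genes were higher in all.

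The Arp2/3 and nucleation list had 9 of 16 lower (median −0.05), with the complex subunits ARPC2 at −0.11 (SE 0.17) and ACTR2 at −0.19 (SE 0.17). The formin DIAPH2 was at 0.78 (SE 0.37, edgeR adjusted p = 0.725). The capping and gelsolin list, which holds FLII, had 3 of 7 lower (median 0.02), with the capping subunits CAPZB at −0.16 (SE 0.18) and CAPZA1 at 0.02 (SE 0.18); CAPZA1 was −0.03 without miR-148a-3p replicate 2 or 3 and −0.045 without control replicate 3.

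**Figure D4:**
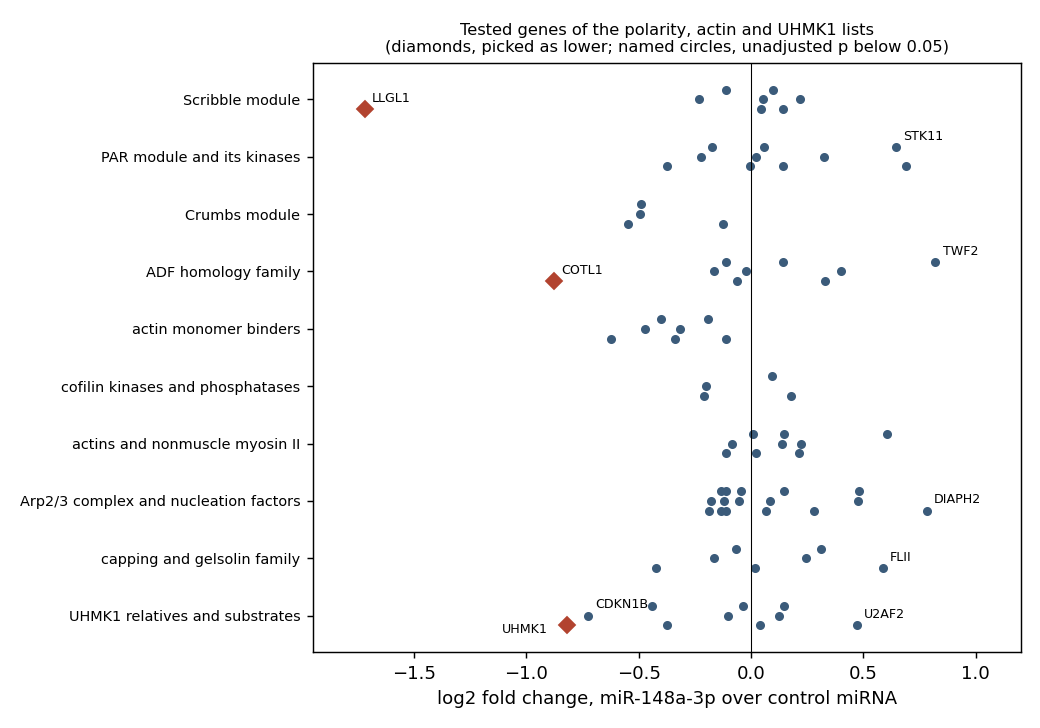
Log2 fold change, miR-148a-3p over control miRNA (x axis), of each tested gene in the 10 lists (rows; vertical offsets within a row only part the points). Diamonds are the 3 genes picked as lower and named circles have an unadjusted p below 0.05; apart from the diamonds the points run from −0.73 for CDKN1B to 0.82 for TWF2.

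Among the substrates and relatives of UHMK1, 5 of 9 tested genes had lower and 4 higher values (median −0.03). CDKN1B, the cyclin kinase inhibitor p27 that UHMK1 phosphorylates, had 105, 74.5 and 60.9 CPM with miR-148a-3p, against 114, 153 and 142 CPM with the control miRNA. Its groups did not overlap, although miR-148a-3p replicate 1 came close to control replicate 1. Its log2 fold change of −0.73 (SE 0.23, 95% interval −1.20 to −0.25, edgeR adjusted p = 0.428) did not pass. STMN1, the microtubule-destabilising protein stathmin, averaged 685 ± 67.6 CPM with miR-148a-3p and 737 ± 56.6 CPM with the control miRNA (−0.10, SE 0.17). SF1 was at 0.04 (SE 0.21). U2AF2, the large U2AF subunit, whose own homology motif binds SF1, was at 0.47 (SE 0.22, edgeR adjusted p = 0.725), with overlapping groups, and was 0.29 without control replicate 1 and 0.71 without control replicate 2.

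The genes whose levels followed the picked genes most closely over the 6 libraries were named by Pearson's r of log2 CPM among genes of at least 50 CPM (4122 for LLGL1 and 4121 for the other two). For LLGL1 they were MBD2 (r = 0.975), BTBD7 (0.971) and UHMK1 itself (0.966). For COTL1 they were MID1IP1 (0.995), MORF4L1 (0.985) and EI24 (0.984), and for UHMK1 they were IPO8 (0.986), VAPA (0.982) and USP40 (0.979). MORF4L1, the 1 gene called over all genes, had 235, 306 and 239 CPM with miR-148a-3p, against 517, 873 and 1052 CPM with the control miRNA, and like COTL1 its lowest control library was replicate 1. All 9 named likenesses are with genes whose groups do not overlap, all lower with miR-148a-3p, as for 6.59% of all genes tested. Likeness to genes picked as lower favours such genes, so nothing is read from that count. An r above 0.9 was met by 54 genes for LLGL1, 50 for COTL1 and 67 for UHMK1, and with 6 libraries that share 2 groups such values describe the pattern and nothing more. Among the picked genes, LLGL1 and COTL1 had r = 0.913 and COTL1 and UHMK1 r = 0.840. Between LLGL1 and LLGL2, a relative that was not picked and whose groups overlap, r was −0.799. LLGL2 also had negative values with the other picked genes, −0.697 with UHMK1 and −0.601 with COTL1, so this is not particular to the paralogues. With the other relatives, LLGL1 had r from −0.246 (DBN1) to 0.366 (PFN1).

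The starts of the picked genes were unlike in base composition. Windows of 250 bases before the annotated start (RefSeq, GRCh38.p14) were available for 7 of the 9 genes and for 35114 starts in all, with a median GC content of 58% and 11 CpG. LLGL1 had 84.8% GC and 47 CpG, more GC than 99.5% of windows, COTL1 had 73.2% and 25 CpG, and UHMK1, whose window lies inside its gene span, had 48.8% and 8 CpG. The windows of LLGL1 and COTL1, which border their gene spans, are shown because they were the 2 picked genes with the lowest fold changes. Capitals mark GC boxes, GGGCGG on either strand, overlapping matches included, as Sp1-type factors bind them.
LLGL1, chr17:18225385-18225634, plus strand: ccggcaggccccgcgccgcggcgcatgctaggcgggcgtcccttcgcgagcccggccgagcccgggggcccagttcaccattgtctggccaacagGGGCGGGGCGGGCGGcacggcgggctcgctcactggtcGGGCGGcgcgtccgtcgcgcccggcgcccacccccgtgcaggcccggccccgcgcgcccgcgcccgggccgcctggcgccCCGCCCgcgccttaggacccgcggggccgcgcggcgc
COTL1, chr16:84618079-84618328, minus strand: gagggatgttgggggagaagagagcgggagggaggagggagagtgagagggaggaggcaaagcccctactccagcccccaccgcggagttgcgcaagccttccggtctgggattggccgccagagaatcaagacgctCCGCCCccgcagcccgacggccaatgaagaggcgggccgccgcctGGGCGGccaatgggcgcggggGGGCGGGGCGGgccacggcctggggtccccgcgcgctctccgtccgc
LLGL1 held 5 GC boxes, COTL1 4 and UHMK1 1, and among the relatives DBN1 held 5, CFL1 2, PFN1 2 and DLG1 1, where 42.6% of all windows hold at least 1. The CCAAT box, CCAAT on either strand, lay 3 times in the COTL1 window, 2 times in that of CFL1 and 1 time in that of DLG1, against 32% of all windows. The ETS core, CCGGAAG on either strand, lay 1 time each in the COTL1 and CFL1 windows, against 8.52% of all windows. The E box, CACGTG, lay 1 time in the DLG1 window, against 6.34% of all windows. The TATAAA letters of the TATA box (10.7% of windows) and the CArG box bound by SRF (1.16%) lay in 0 of the 7 windows. The DLG1 window, like that of UHMK1, lies inside the gene span. The match of letters is a description of these windows alone.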

How the data were processed

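Poly(A) 3' end mRNA libraries of DROSHA knockout HCT116 cells were primed with oligo-dT from 500 ng of total RNA, per the labels' protocols. One file of raw counts by gene symbol was deposited for each library, and a gene missing from a file was taken as 0. The submitters' processing notes name cutadapt, STAR, Bowtie2 and GRCh38 with no role or version. How reads were assigned to genes, with which gene models and with or without strand, is not given in the sources used here. Reads were not collapsed to molecules. The small RNA library of the series was not used here.

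Counts were fitted with edgeR 4.0.16 in R 4.3.3 (TMM, filterByExpr with the group, quasi-likelihood F test, group as the only term), and p-values were adjusted by Benjamini-Hochberg over 8921 genes. An exact two-sided permutation test of 3 against 3 libraries cannot go below 0.1 and was not used. DESeq2 1.42.0, limma-voom (limma 3.58.1), other size factors, no count filter, a replicate block and leaving out each library were alternatives. The scripts were tested on simulated data.

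Members and lists were chosen with earlier results of these data known. The named genes are the 9, list genes with an unadjusted p below 0.05, the 2 most counted per list, the 3 most alike in pattern, and neighbours; other list genes were named after their values were seen. Replicate libraries differed more than sampling noise allows, with 2.58 to 5.80 as chi-square per degree of freedom.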

Additional observations from a re-analysis of the deposited data

How the results depend on the processing

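The count of genes called lower over all genes was 1 with edgeR and also 1 with DESeq2-type size factors or upper-quartile factors. It was 11 with no count filter, 6 with the DESeq2 test, 3 with the limma-voom test and 3 with the replicate block, and ran from 1 to 22 with 1 library left out, 22 without control replicate 1. The count called higher was 0 with edgeR, 7 with no count filter, 1 with the DESeq2 test and 0 to 4 with 1 library left out, 4 without control replicate 1. None of the 12 alternatives called a gene of the 10 lists other than the picked 3, for which no call was read; DESeq2 gave no adjusted p for 48 of the 81 genes, which it therefore could not call. The cause of these moves was not tested.

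LLGL1, COTL1 and UHMK1 kept a lower value under each of those 12 alternatives, moving by at most 0.266, 0.182 and 0.116 on the log2 scale. As they were picked as lower in these libraries, this adds no support. Leaving out 1 of 3 libraries can shift a group mean by only part of the spread, so small moves are built in. The within-group SD of log2 CPM pooled over both groups was 0.312, 0.255 and 0.183. For COTL1 that SD comes mostly from the control libraries. The summed reads of LLGL1 and FLII gave 0.22, an alternative chosen after seeing the data. FLII holds most of those reads, with LLGL1 at 27.2% to 28.9% of them in the control libraries. The sum thus does not describe LLGL1 alone. SCRIB turned to −0.0051 with limma-voom. With 1 library left out, these genes near 0 crossed it: SCRIB (−0.084 to 0.20), CFL1 (−0.12 to 0.10), CDC42 (−0.084 to 0.15), MARK3 (−0.47 to 0.25), DSTN (−0.35 to 0.044), SSH1 (−0.0081 to 0.21), LIMK1 (−0.010 to 0.44) and CAPZA1 (−0.045 to 0.12).

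The replicate numbers were not taken as pairs: same-numbered libraries deviated from their group means with correlations of 0.133, 0.093 and −0.00185, and not all were best with their own number. With the replicate block 3 genes were called lower and 0 higher. LLGL1 rests on 156 reads in all, 6 to 41 a library, which limits its precision most among the 9 genes.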
